A study of Cricetiscus sungorus with 16 samples.

Results

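Prostaglandin pathway genes and a gene of luteal regression were followed in the ovaries of Siberian hamsters raised in short or long days. The 8 members were chosen by their transcript identifiers: NM_008969 (Ptgs1), NM_011198 (Ptgs2), NM_022415 (Ptges), NM_008278 (Hpgd), NM_008966 (Ptgfr), NM_008964 (Ptger2), NM_008965 (Ptger4) and NM_134066 (Akr1c18). The symbols came with that list, since the array files give identifiers alone. All 8 were on the array, by 10 probes, among 33272 identifiers in all. Of these, 4 members passed the detection filter and were tested: Ptges, Hpgd, Ptger4 and Akr1c18.

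Prostaglandins are short-lived lipid signals made from arachidonic acid. The cyclooxygenases turn it into an intermediate that terminal synthases convert to prostaglandin E2, prostaglandin F2alpha and others, which act on their own receptors and are then broken down by a dehydrogenase. In the ovary prostaglandin E2 is known for its part in ovulation, and in rodents prostaglandin F2alpha drives the regression of the corpus luteum, where the enzyme encoded by Akr1c18 in mouse inactivates progesterone.

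The Siberian hamster breeds seasonally, and short days delay its sexual maturity. Females had been gestated and then kept in short days (10 h of light a day, SD in the labels and plots) or long days (16 h of light, LD), and their ovaries were collected at an age of 3 or 8 wk. The groups, of 4 hamsters each, were short-day at 8 wk, long-day at 8 wk, short-day at 3 wk and long-day at 3 wk, and RNA from the ovaries of each hamster went onto 1 mouse oligonucleotide array in a single colour. For the 4 short-day samples at 8 wk the labels conflict, with 16 h in the title and treatment fields and 10 h in the description; they were taken as short-day, which could not be checked. The labels give no strain, no genetic alteration and no cycle stage. The animal codes in the labels all differ, and a group's arrays were therefore counted as 4 hamsters.

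The 16 arrays lay on 4 slides, each with 1 array of every group. Arrays of 1 group sat at 1 fixed position of every slide, so position and group cannot be told apart. The 75th percentile of intensity on an array lay between 269 and 1007, with the 4 lowest, 269 to 370, on slide 1. An array had 58.0% to 75.7% of its 41174 probes well above background, and no spot was saturated. The probes were designed for mouse transcripts, and their match to hamster transcripts was not tested. Markers of ovarian and other cell types, and the other genes of the pathway, were not analysed here because the files hold no symbols. Levels are log2 of the processed intensity minus the log2 of that array's 75th percentile, so a level of 0 equals that percentile, and each probe was set only against itself in another group.

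Ptgs1 and Ptgs2 encode the cyclooxygenases, the constitutive form and the form induced by gonadotropins and inflammatory signals. Neither passed the filter, which asked that 1 group or more have all 4 of its arrays well above background. The Ptgs1 probe A_51_P279100 was well above background on 3 of 16 arrays, all on slide 2, with intensities of 2.46 to 17.5. Its levels ran from −6.72 to −6.24 in short-day and from −7.03 to −5.39 in long-day ovaries at 8 wk, and from −8.17 to −6.29 in short-day and from −7.64 to −5.55 in long-day ovaries at 3 wk. The groups overlapped, and most of these values lay in the range where the signal was not well above background.

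Ptgs2 was covered by 2 probes that differed in brightness. Probe A_51_P254855, spotted 10 times, was on no array well above background. Probe A_52_P224760 was well above background on 12 arrays, 3 of 4 in every group, and so missed the filter by 1 array in each. On slides 1 to 4 its levels were −4.32, −4.71, −5.67 and −4.53 in short-day ovaries at 8 wk and −4.40, −4.58, −3.99 and −4.57 in long-day ovaries at 8 wk. At 3 wk they were −4.61, −4.58, −4.00 and −4.18 in short-day ovaries and −3.31, −3.96, −4.99 and −4.33 in long-day ovaries. All 4 groups overlapped, and the lowest array, short-day at 8 wk on slide 3, was not well above background. With the filter removed, the difference of short-day from long-day ovaries at 8 wk was −0.42 (SE 0.35, limma adjusted p = 1).

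Ptges encodes the inducible microsomal prostaglandin E synthase, which makes prostaglandin E2 from the cyclooxygenase product. Its signal was lower at 8 wk than at 3 wk in the ovaries of short-day hamsters, without overlap. Its probe, A_51_P312327, was well above background on all 16 arrays, with intensities of 146 to 754. On slides 1 to 4 the levels were −1.32, −1.66, −1.28 and −1.33 in short-day ovaries at 8 wk, against 0.22, −0.72, −0.63 and −0.42 in short-day ovaries at 3 wk. In long-day ovaries they were −0.64, −1.09, −1.59 and −1.63 at 8 wk, against 0.15, −0.85, −0.83 and −0.93 at 3 wk. The highest array of each group but short-day at 8 wk was that of slide 1. The long-day arrays of the ages overlapped, through slide 1 at 8 wk.

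Ptges fell with age in short days, to −1.40 ± 0.18 at 8 wk against −0.39 ± 0.43 at 3 wk (SD, n = 4 each). The log2 difference was −1.01 (SE 0.27, 95% interval −1.59 to −0.43, 0.496-fold, limma adjusted p = 0.0287, and 0.0015 in the fit with slide as a block, which compares arrays within slides). The level was lower at 8 wk on all 4 slides, with differences of −1.54, −0.94, −0.65 and −0.91. The call was lost when any of 5 arrays was left out: short-day at 8 wk on slide 2, 3 or 4, or short-day at 3 wk on slide 1 or 4 (limma adjusted p 0.052 to 0.0948, differences of −1.05 to −0.81). With slide as a block, in 16 fits chosen after seeing the data, it held whichever array was left out (limma adjusted p 0.00118 to 0.00746). The ovary is a mixture of cells, and fewer cells that express Ptges cannot be told apart from less RNA per cell.

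In long days the Ptges level averaged −1.24 ± 0.47 at 8 wk and −0.61 ± 0.51 at 3 wk (SD, n = 4 each). The difference of −0.62 (SE 0.27) did not pass without the block (limma adjusted p = 0.316) and passed with slide as a block (limma adjusted p = 0.0388). It was negative on all 4 slides, at −0.79, −0.25, −0.76 and −0.70. With the block it passed in 6 of the 16 fits that left out 1 array (limma adjusted p 0.0161 to 0.117), and not without slide 1 (limma adjusted p = 0.0625). The short-day age change minus the long-day age change was −0.39 (SE 0.39, 95% interval −1.21 to 0.43, limma adjusted p = 1), so a difference in the Ptges age change between day lengths was not shown. From low to high the group means ran short-day 8 wk, long-day 8 wk, long-day 3 wk and short-day 3 wk. Within an age, the day lengths differed by −0.16 at 8 wk and 0.23 at 3 wk (short minus long, limma adjusted p = 1 for each), with slides 1 and 2 lower and slides 3 and 4 higher in short days at 8 wk.

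Hpgd encodes 15-hydroxyprostaglandin dehydrogenase, which starts the breakdown of prostaglandins E2 and F2alpha. Probe A_51_P458781 stood for it, well above background on all 16 arrays with intensities of 807 to 1787. On slides 1 to 4 its levels were 1.48, 0.15, 0.20 and −0.001 in short-day ovaries and 1.59, 0.15, 0.63 and 0.34 in long-day ovaries at 8 wk. At 3 wk they were 1.77, 0.49, 0.87 and 0.40 in short-day ovaries and 2.06, 0.39, 0.86 and 0.72 in long-day ovaries. Slide 1 was the highest in every group and the groups overlapped in each comparison. The slide held 86.2% of the variance of Hpgd over the 16 arrays, the group 11.5% and the remainder 2.3%. The mean over the 4 arrays of slide 1 was 1.72, against 0.29 to 0.64 on the other slides, beside the lower 75th percentile of intensity on slide 1; the part of that scaling in the Hpgd levels was not tested.

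Within slides the Hpgd signal was lower at the later age in both day lengths. The difference of 8 wk from 3 wk was −0.29, −0.35, −0.67 and −0.40 on slides 1 to 4 in short days. In long days it was −0.48, −0.24, −0.24 and −0.38. Without the block the short-day difference of −0.43 (SE 0.42) did not pass (limma adjusted p = 0.696), and with slide as a block Hpgd fell by 0.43 (SE 0.10, limma adjusted p = 0.0098). The long-day difference of −0.33 did not pass in either fit (limma adjusted p = 0.882, and 0.0544 in the fit with the block). With the block, 16 fits chosen after seeing the data each left out 1 array. The long-day difference passed in 1 of them, without long-day 3 wk on slide 2 (limma adjusted p 0.0326 to 0.181 over the 16). The age changes of the day lengths differed by −0.095 (95% interval −0.41 to 0.22 with slide as a block, limma adjusted p = 0.855).

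In rising order, the group means of Hpgd were 0.46 ± 0.69 in short-day and 0.68 ± 0.64 in long-day ovaries at 8 wk, and 0.88 ± 0.62 in short-day and 1.01 ± 0.73 in long-day ovaries at 3 wk (SD, n = 4 each). The gaps between neighbours in this order were smaller than the SD within a group. That SD also holds the differences between slides, so it does not measure the spread of these gaps within slides. The second Hpgd probe, A_51_P458778, was well above background on 9 of 16 arrays, 1 of 4 in short-day ovaries at 8 wk, and did not pass the filter. Its levels ran from −5.62 to −4.99 in short-day and −5.47 to −4.53 in long-day ovaries at 8 wk. At 3 wk they ran from −5.16 to −4.27 in short-day and −5.67 to −3.85 in long-day ovaries. Its age differences within slides averaged −0.41 in short days and 0.030 in long days, so the long-day fall of the first probe was not repeated. With this few arrays above background, no difference between groups is read from these values.

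The receptors were covered by 1 probe each. Ptgfr, the receptor for prostaglandin F2alpha, was near background: its probe A_52_P153019 was well above it on 4 of 16 arrays. These were 1 short-day array and 2 long-day arrays at 8 wk, and 0 short-day arrays and 1 long-day array at 3 wk. Levels ran from −6.52 to −5.27 in short-day and −6.06 to −5.14 in long-day ovaries at 8 wk, and from −6.37 to −5.46 in short-day and −6.60 to −5.43 in long-day ovaries at 3 wk. The groups overlapped throughout.

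Ptger2 and Ptger4 encode receptors for prostaglandin E2 that raise cyclic AMP, and in mouse Ptger2 is known for its part in cumulus expansion. The Ptger2 probe A_51_P249215 was well above background on 3 of 16 arrays, 2 long-day arrays at 8 wk and 1 long-day array at 3 wk. At 8 wk its levels on slides 1 to 4 were −6.86, −6.41, −6.87 and −5.29 in short-day ovaries, against −4.55, −5.03, −6.38 and −5.17 in long-day ovaries. At 3 wk the levels ran from −6.98 to −5.90 in short-day and from −6.78 to −5.48 in long-day ovaries. The groups overlapped at both ages. With the filter removed, Ptger2, Ptgfr and Ptgs1 passed in none of the 5 comparisons (limma adjusted p 0.378 to 1). No fold or difference is given for Ptger2, Ptgfr or Ptgs1: where a group had no array well above background, the mean of the brighter group did not exceed the bound set by the lowest signals well above background on the dimmer group's arrays.

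**Figure D1:**
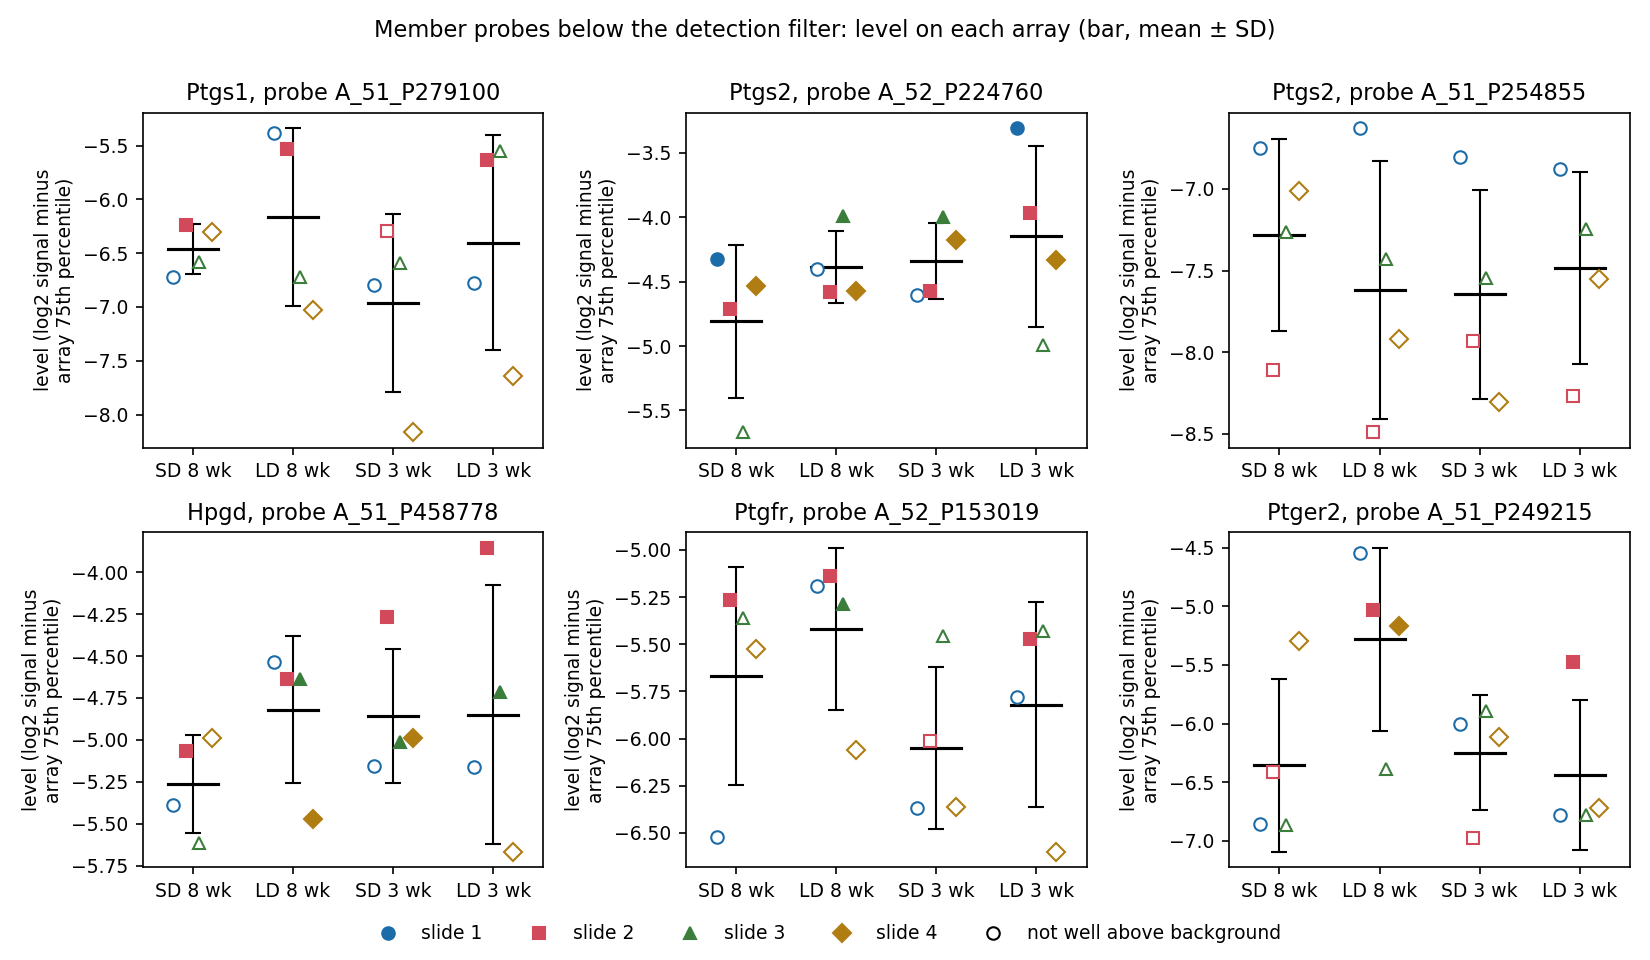
Levels of the 6 member probes that did not pass the detection filter, on each array (log2 intensity minus the array's 75th percentile, 1 panel per probe, short days SD and long days LD). Bars are group means ± SD (n = 4), symbols mark the slide, and open symbols are arrays not well above background; the groups overlap in every panel and Ptgs2 probe A_52_P224760 has 3 filled symbols of 4 in each group.

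Ptger4 was measured on all 16 arrays by probe A_51_P207988, with intensities of 23.7 to 173. On slides 1 to 4 its levels were −3.94, −3.21, −2.88 and −3.06 in short-day ovaries at 8 wk, against −2.97, −2.68, −2.52 and −2.93 in long-day ovaries at 8 wk. At 3 wk they were −2.83, −3.19, −3.001 and −3.03 in short-day ovaries, against −3.28, −2.52, −2.29 and −2.94 in long-day ovaries. The lowest of all arrays was short-day at 8 wk on slide 1, and the groups overlapped in every comparison. From low to high the means were −3.27 ± 0.47 in short-day ovaries at 8 wk, −3.01 ± 0.15 in short-day ovaries at 3 wk, −2.78 ± 0.21 in long-day ovaries at 8 wk and −2.76 ± 0.44 in long-day ovaries at 3 wk (SD, n = 4 each). The arrays of neighbouring groups in this order overlapped.

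No comparison of Ptger4 passed the test. The largest of its differences was between the day lengths at 8 wk, −0.50 (SE 0.24, 95% interval −1.01 to 0.017, limma adjusted p = 0.768, and 0.234 in the fit with the block). It was negative on all 4 slides, from −0.97 on slide 1 to −0.13 on slide 4, and was −0.34 without slide 1. At 3 wk the day lengths differed by −0.26 (limma adjusted p = 1), with slide 1 positive and the other 3 slides negative. The ages differed by −0.26 in short days (limma adjusted p = 0.669), of which slide 1 gave −1.11 and the other slides −0.030 to 0.12, and by −0.018 in long days (limma adjusted p = 0.996).

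Akr1c18 encodes 20alpha-hydroxysteroid dehydrogenase, a role known from mouse and rat. Its signal was lowest in short-day ovaries at 8 wk, where all 4 arrays lay below every array of the long-day ovaries of that age and of the short-day ovaries at 3 wk. The probe, A_51_P256170, was well above background on all 16 arrays, with intensities of 60.8 to 2643. On slides 1 to 4 the levels were −2.58, −1.57, −2.15 and −0.77 in short-day ovaries at 8 wk, against 0.69, 0.22, −0.32 and −0.44 in long-day ovaries at 8 wk. At 3 wk they were 1.09, −0.43, 0.41 and −0.75 in short-day ovaries, against −1.50, 1.84, 0.89 and 0.18 in long-day ovaries. The lowest short-day array at 3 wk, on slide 4, lay 0.018 above the highest short-day array at 8 wk, on the same slide. The long-day ovaries at 3 wk spread most, with the highest array of all on slide 2 and a low one on slide 1.

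At 8 wk Akr1c18 averaged −1.77 ± 0.78 in short-day ovaries and 0.036 ± 0.52 in long-day ovaries (SD, n = 4 each). The difference of −1.80 (SE 0.59, 95% interval −3.05 to −0.56, 0.286-fold) had an unadjusted limma p of 0.00742. It did not pass after adjustment (limma adjusted p = 0.269, and 0.183 in the fit with the block). By slide it was −3.28, −1.80, −1.82 and −0.33. On slides 3 and 4 alone, a setting chosen after seeing the data, it was −1.07 with slide as a block (limma adjusted p = 0.521). It passed under none of the 47 settings other than the reported one (limma adjusted p 0.0673 to 0.616).

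Between the ages in short days, Akr1c18 averaged −1.77 ± 0.78 at 8 wk and 0.079 ± 0.83 at 3 wk (SD, n = 4 each). The difference of −1.85 (SE 0.59, 95% interval −3.10 to −0.60, 0.278-fold) fell short of the threshold without the block (limma adjusted p = 0.0626) and was just past it with slide as a block (limma adjusted p = 0.0497). By slide it was −3.68, −1.14, −2.56 and −0.018, so slide 4 showed almost none of it. Without slide 1 it was −1.24 (limma adjusted p = 0.0877, and 0.0873 in the fit with the block). With the block, in fits chosen after seeing the data, it passed in 6 of the 16 that left out 1 array (limma adjusted p 0.0144 to 0.181). In long days the age difference was −0.32 (SE 0.59, 95% interval −1.56 to 0.93, limma adjusted p = 0.937), at 2.20 on slide 1 and −1.62 to −0.62 on the others.

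At 3 wk the day lengths differed in Akr1c18 by −0.27 (SE 0.59, limma adjusted p = 1), at 2.60, −2.27, −0.48 and −0.93 on slides 1 to 4. The short-day minus the long-day age change was −1.53 (SE 0.83, 95% interval −3.30 to 0.23, limma adjusted p = 1, and 0.65 in the fit with the block). It was −5.87 on slide 1 and 0.48, −1.35 and 0.61 on slides 2 to 4, and without slide 1 it was −0.087. A difference between the day lengths in the Akr1c18 age change was therefore not shown. The order of the means was short-day 8 wk, long-day 8 wk, short-day 3 wk and long-day 3 wk (0.35 ± 1.41), and the gaps among the upper 3 were smaller than the SD within a group.

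**Figure D2:**
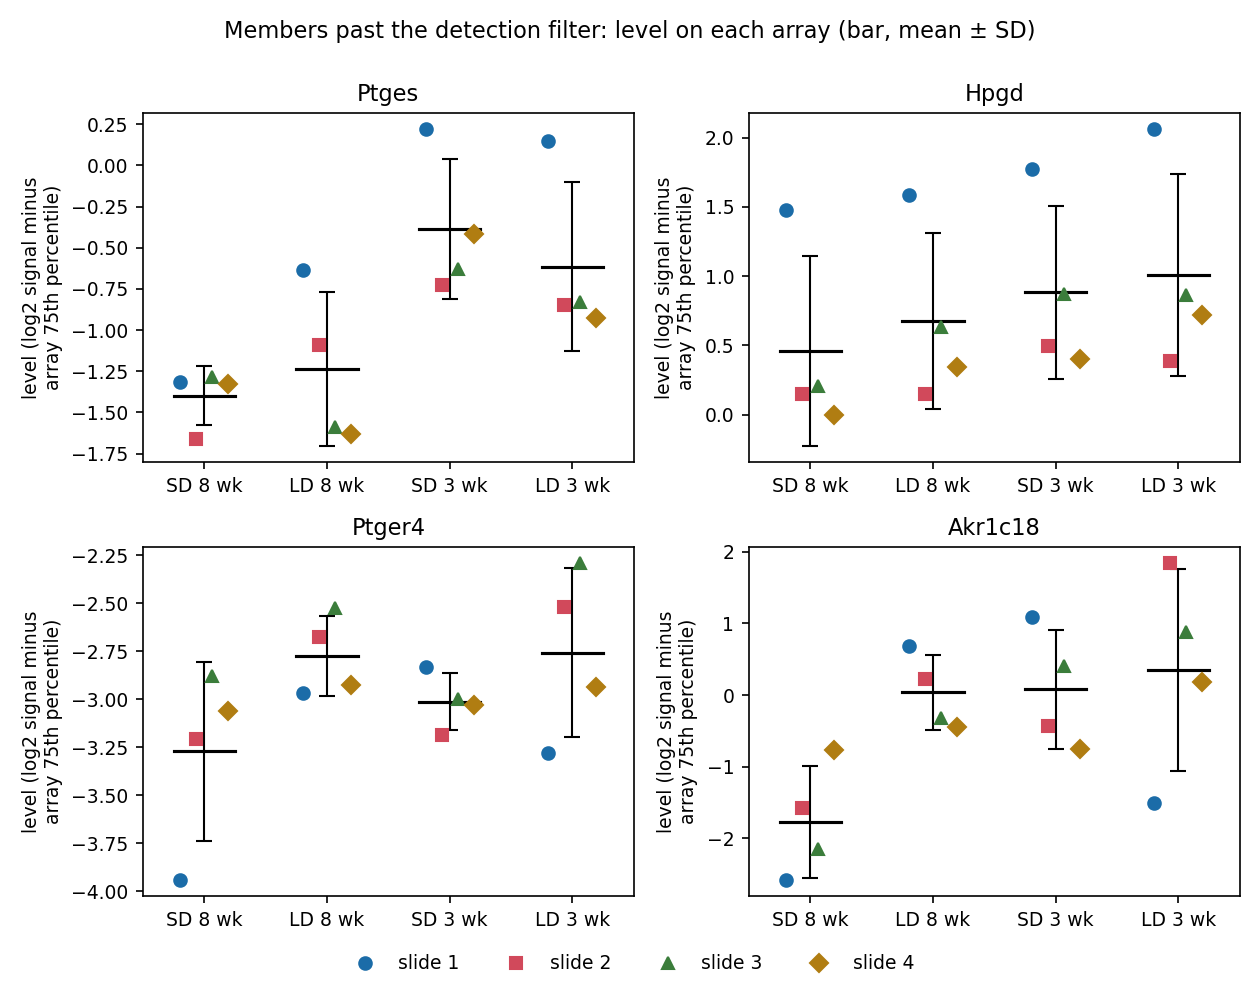
Levels of the 4 tested members on each array (log2 intensity minus the array's 75th percentile, 1 panel per gene, short days SD and long days LD). Bars are group means ± SD (n = 4) and symbols mark the slide; Ptges is lower at 8 than at 3 wk in short days without overlap, Hpgd is highest on slide 1 in every group, and Akr1c18 is lowest in short-day ovaries at 8 wk.

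The first comparison, of short-day with long-day ovaries at 8 wk, addressed the effect of day length at the later age. Of the 4 members tested, 0 passed in limma, with or without slide as a block. Without the block 1 (Akr1c18) had an unadjusted p under 0.05. Over all 20143 identifiers 0.958% passed (2.62% with slide as a block) and 6.94% had an unadjusted p under 0.05 without the block. The arrays of 1 of the 4 members, Akr1c18, did not overlap and were lower in short days, as were those of 1.93% of all identifiers. The differences of all 4 members were negative, with a median of −0.36 on the log2 scale, against −0.0091 over all identifiers, of which 52% were negative. Without slide 1 the Ptges difference was 0.012.

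At 3 wk the same comparison gave 0 of 4 members past the test in limma, with or without the block, and 0 at an unadjusted p under 0.05. Over all identifiers 0% passed in either fit and 1.64% had an unadjusted p under 0.05. No member's arrays were without overlap, against 1.71% of all identifiers. The median difference was −0.19 for the members and −0.054 for all identifiers. Ptges alone was positive, and it was higher in short days on all 4 slides, by 0.070 to 0.51.

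The comparisons of the ages asked how the ovary changed between 3 and 8 wk in each day length. In short days 1 of 4 members, Ptges, fell, where 9.15% of all identifiers changed and 4.38% fell. With slide as a block 3 of 4 fell, Ptges, Hpgd and Akr1c18, where 23.1% of all identifiers changed and 12.2% fell. With 4 members, 1 call is the smallest share above 0 that can occur. The arrays of 2 members, Ptges and Akr1c18, did not overlap and were lower at 8 wk, as were those of 7.83% of all identifiers. The median difference was −0.72 for the members and 0.0012 for all identifiers.

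In long days 0 of 4 members passed in limma without the block, where 2.98% of all identifiers did, and 1 (Ptges) had an unadjusted p under 0.05, where 13.4% did. With slide as a block 1 of 4, Ptges, fell, where 11.9% of all identifiers changed and 7.96% fell. No member's arrays were without overlap, against 8.71% of all identifiers. The median difference was −0.32 for the members and −0.045 for all identifiers.

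The difference between the age changes, short-day minus long-day, passed for 0 of 4 members in limma with or without the block, and 0 had an unadjusted p under 0.05. Over all identifiers 0.0596% passed (0.174% with slide as a block) and 3.05% had an unadjusted p under 0.05. All 4 values were negative, with a median of −0.31 against 0.048 over all identifiers, of which 42.5% were negative. Without slide 1 the value was 0.15 for Ptger4 and −0.087 for Akr1c18. The comparisons share groups of arrays, so their values for a member are not independent of each other. The signs and medians given for each comparison describe only the 4 tested members, chosen with earlier results of these data known. They were not tested.

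**Figure D3:**
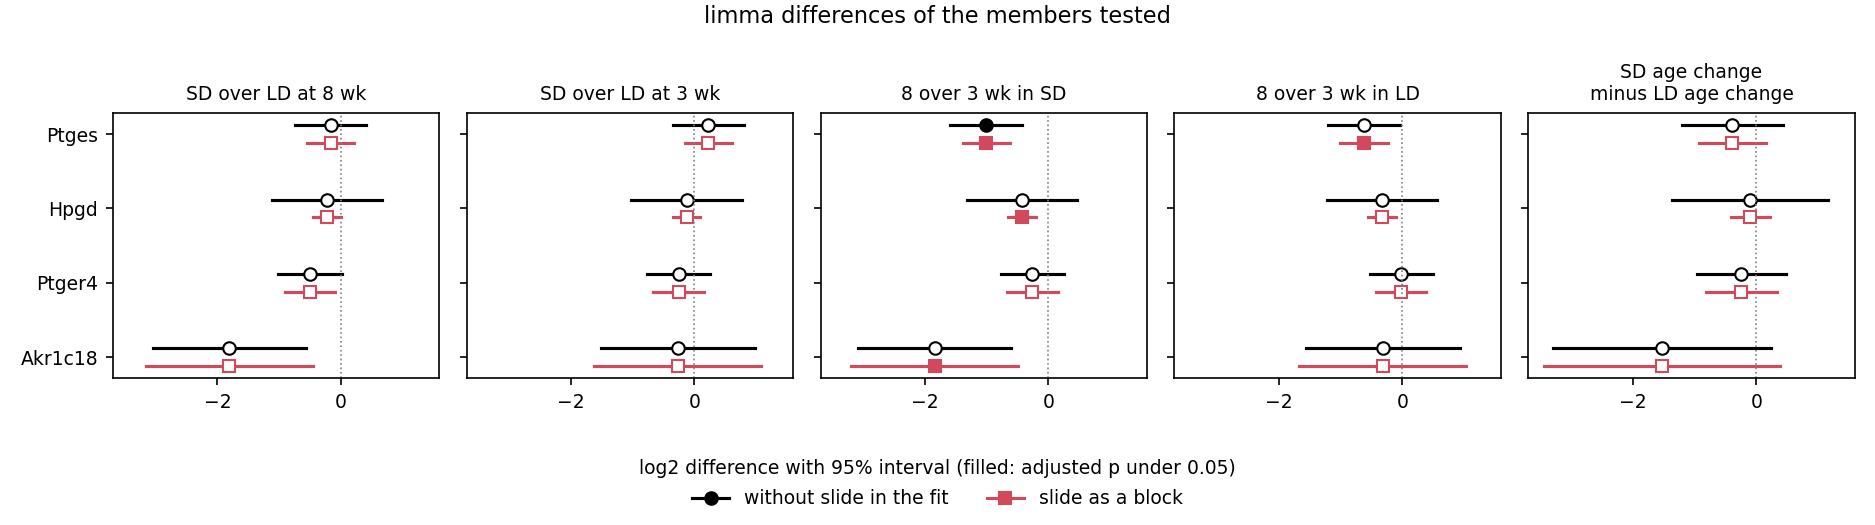
Differences of the 4 tested members in 5 comparisons, in log2 units with 95% intervals (limma, 16 arrays), in black without slide in the fit and in red with slide as a block; SD is short days and LD long days. Filled symbols have an adjusted p under 0.05: Ptges between the ages in short days in both fits, and with the block also Hpgd and Akr1c18 there and Ptges in long days.

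The share of variance held by the slide separated the members. For Akr1c18 the slide held 3.54%, the group 51.4% and the remainder 45.1%, so animals of a group on different slides spread almost as widely as the groups. For Ptges the group held 57.6%, the slide 28.6% and the remainder 13.8%. Ptger4 had 32.6% with the slide, 32.9% with the group and 34.5% in the remainder. With slide as a block the standard error of an age change came to 0.10 for Hpgd, against 0.42 without it. For Akr1c18 it came to 0.63 with the block, against 0.59 without it.

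**Figure D4:**
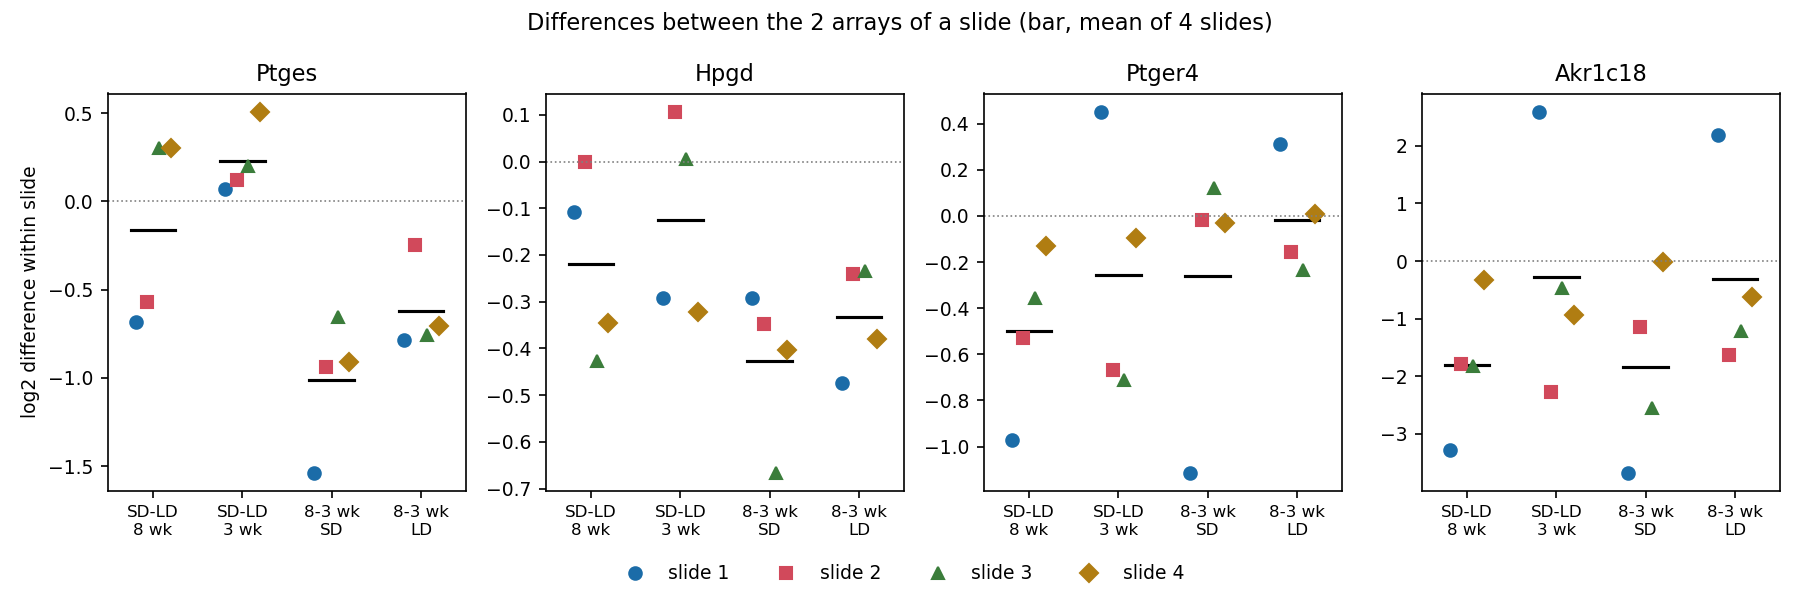
Differences between the arrays of a slide for the 4 tested members (log2 units, 1 symbol per slide, bar the mean of 4 slides), for short minus long days (SD-LD) at 8 and 3 wk and for 8 minus 3 wk in each day length. The age differences of Ptges and Hpgd are below 0 on every slide in both day lengths, while those of Akr1c18 in short days run from −3.68 to −0.018.

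Likeness was measured over the 16 arrays with each slide's mean removed, against 18647 other identifiers measured on every array. The pattern most like that of Ptges was NM_177372 (r = 0.964), and the one most like that of Akr1c18 was NM_053247 (r = 0.955). The highest correlations were 0.958 for Hpgd and 0.888 for Ptger4. Among the members themselves r was 0.813 for Ptger4 with Akr1c18, 0.633 for Ptges with Hpgd and 0.49 for Ptges with Akr1c18. The remaining pairs were lower, at 0.456 for Hpgd with Akr1c18, 0.38 for Ptges with Ptger4 and 0.246 for Ptger4 with Hpgd. These are descriptions over arrays that share the same groups, the highest was picked from many, and no test was made of them.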

How the data were processed

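Total RNA of both ovaries of each hamster was amplified and labelled with Cy3, per the labels' protocols. The authors scanned the 4 slides over 3 days and extracted spots, per the file headers, with Agilent Feature Extraction 10.5.1.1. The deposited scanner files hold processed spot intensity values, linear, background-corrected and without scaling of arrays to each other, with flags for outliers and for signal well above background. The authors' deposited value table, with column medians of 26.6 to 91.5, holds the same intensity values, within 0.5% except 4 cells of 1 column. It is linear and not centred.

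Levels are log2 intensity minus each array's 75th percentile, without outlier-flagged spots, over 43379 non-control spots of 41174 probes. Kept were probes well above background on every array of 1 group or more and measured on 12 arrays or more, with no fewer than 2 in any group or slide. The brightest kept probe stood for an identifier, which left 20143. They were fitted over all 16 arrays with limma 3.58.1 in R 4.3.3 (lmFit, eBayes with trend), with Benjamini-Hochberg adjustment over all 20143 and a threshold of 0.05. All probes of the 8 members are reported. The members and lists were chosen with earlier results of these data known, and the lists of other genes, which need symbols, were not used. The labels give no replicate numbers, and the slide number serves as one. Deviations from the group means were shared within slides (24 pairs over 18648 identifiers, correlations of 0.224 to 0.727), so a fit with the slide as a fixed block is given beside results it changes. The fit was tested on simulated data. Alternatives covered normalization, background correction, the filter, probe use, the value table, the block, array weights and left-out arrays or slides. Precision is limited by the number of arrays.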

Additional observations from a re-analysis of the deposited data

Results flagged for a closer look

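In 5 of 36 groups of 4 arrays, 1 array stood far from the other 3, measured by its gap to the nearest array over the range of the group. Chance alone marks about 1 in 20 groups in this way. For Ptges, short-day at 8 wk on slide 2 stood at −1.66 with its nearest neighbour at −1.33, and long-day at 3 wk on slide 1 stood at 0.15 with its nearest neighbour at −0.83. For Hpgd, short-day at 8 wk on slide 1 stood at 1.48 with its nearest neighbour at 0.20; slide 1 was the highest in every group of Hpgd. For Ptgfr, long-day at 8 wk on slide 4 stood at −6.06 with its nearest neighbour at −5.29, and was not well above background. For Ptger2, long-day at 3 wk on slide 2 stood at −5.48 with its nearest neighbour at −6.72, and was the only array of that group well above background.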

How the results depend on the processing

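The Ptges fall in short days, which passed in the reported fit, kept its direction under all 47 alternatives. Not all of these could move it. Leaving out a long-day array, or adding the block to the full fit, left the difference at −1.01 by construction. Counts of members past the threshold changed only between the ages. In short days, where 1 passed, 3 passed with slide as a block (Ptges, Hpgd and Akr1c18), 2 when only the groups compared were fitted and 2 with array weights (Ptges and Akr1c18 in each). Leaving out 1 array gave 0 to 2. It was 0 without short-day 8-wk replicate 2 or 3 or short-day 3-wk replicate 1 or 4, and 2 without long-day 3-wk replicate 1 or 2, as Akr1c18 then passed (limma adjusted p = 0.0179 and 0.0387). Without short-day 8-wk replicate 4, Akr1c18 passed (limma adjusted p = 0.0441) and Ptges did not. In long days, where 0 passed, 1 (Ptges) passed with slide as a block, beside 2.98% and 11.9% of all identifiers. Chosen after seeing the data were alternatives of 3 kinds, all with the block. These were slides 3 and 4 alone, the arrays without slide 1, and 16 fits that each left out 1 array. On slides 3 and 4 alone 1 member passed in short days and 1 in long days (Ptges in each). Without slide 1, 2 passed in short days (Ptges and Hpgd). Leaving out 1 array gave 2 to 3 in short days and 0 to 1 in long days. The 1 was Hpgd without long-day 3-wk replicate 2 (−0.40, limma adjusted p = 0.0326) and Ptges otherwise. Shares over all identifiers are not given for these later-chosen fits, so their counts are not set against a background. Without the block and without long-day 3-wk replicate 1, the long-day Hpgd difference was 0.019 and did not pass. Ptges passed in short days in 42 of 47 alternatives (−1.14 to −0.78), Hpgd in 18, all with the block, and Akr1c18 in 12. Of these passes, 16 for Ptges, 16 for Hpgd and 6 for Akr1c18 came from the later-chosen fits that left out 1 array. The fit with slide as a replicate block changed no other call. In normexp, local backgrounds marked as outliers took the array's median background. Signals of Ptgs1, Ptgfr and Ptger2 near background set the limit for those members.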
